A study of Apis mellifera with 13 samples.

Results

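DNA methylation was compared across the genome between the abdomens of 3 honey bees (Apis mellifera carnica) fed curcumin together with ethanol and 5 honey bees fed ethanol alone. All regions listed for this comparison were taken, in total 9689 of the 18576 listed in the series, whose other 8887 regions compare ethanol with control. Ethanol was given at 1% (v/v) in the feed of both groups, curcumin at 100 µg/ml in the co-fed group only, and both diets ran for 10 days. The ethanol bees came from cages A (2 bees) and B (3 bees) and the co-fed bees from cages C (1 bee) and D (2 bees), so that diet and cage cannot be told apart. The bees of the cages had been collected from a pair of donor hives, and further co-fed libraries had been set aside by the study for low bisulfite conversion. The 5 control bees, kept without ethanol or curcumin in cages AG and BG, complete the 13 bees of the series. The tables hold values per region and 0 columns of single bees. No spread between bees, test between diets or depth per region could therefore be given, and the tissue could not be checked against marker genes.

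In honey bees, DNA methylation is sparse and sits mainly at CpG dinucleotides within the bodies of genes that are active in many tissues. The abdominal carcass contains the fat body, the insect organ that stores energy and takes on tasks of the vertebrate liver and white adipose tissue. Whole genome bisulfite sequencing converts unmethylated cytosines and leaves methylated ones, and the share of reads that keep the cytosine at a CpG is its methylation level. Curcumin is a yellow polyphenol that gives turmeric its colour.

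Each region is a run of neighbouring CpGs within a larger cluster of CpGs. Its summed difference adds the differences of all its CpGs, curcumin and ethanol minus ethanol, so that a positive value is a higher methylation level in the co-fed bees. Levels had been arcsine transformed, and the exact form is not given in the sources used here. On the common form, the arcsine of the square root, levels from none to full run from 0 to 1.57. Regions had been listed where a smoothed difference reached 0.1, so they were chosen for a difference and the number listed is not a number of changed regions. The summed difference is not smoothed. Divided by the number of CpGs it was below 0.1 without sign in 1132 regions (11.7%), and in 255 its direction went against the smoothed one. All of these are kept in the counts of direction. Regions are given in the order of their summed difference without its sign, as rank 1 to 9689. Positions are those of the tables on Amel 4.5, and the regions were not assigned to genes except at the 4 loci that the study names, since an annotation of that build was not used here.

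Slightly more regions were lower than higher in methylation with curcumin. Of the 9689 regions, 4996 (51.6%) were lower in the co-fed bees and 4693 were higher, with a Wilson 95% interval of 50.6 to 52.6% for the share lower. Such intervals cover counting only and are too narrow where neighbouring regions move together. Per CpG, the median size of the difference was 0.185 without its sign, with the middle 50% of regions between 0.133 and 0.250. With the sign kept the median was -0.0406. The differences of all 30707 CpGs added up to -377, against 6190 when the sign of each region was dropped and 6954 when the sign of each CpG was dropped. The lower and higher regions thus nearly cancelled.

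Only a small part of these differences sat in CpGs that had been marked as individually significant by the test per CpG of the study. Marks are taken to go with an unadjusted p under 0.05 in that test, so a mark is not a call of a changed CpG. Marked CpGs were present in 1727 regions (17.8%) and carried 13.7% of the difference summed over CpGs without sign, the measure behind every marked share given here. Their differences added up to -492 where methylation was lower in the co-fed bees and to 464 where it was higher. The direction was therefore nearly evenly split among marked CpGs, with 51.4% of their difference lower. This is a share of the difference and not, as for regions above, of a count. The CpGs of a region mostly moved one way, and the 6190 over regions was 89.0% of the 6954 over CpGs. This arises in part by construction, since a region ends where its smoothed difference changes sign and 3468 regions hold 1 CpG.

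The largest summed difference was a gain of methylation on linkage group 6, where 2 neighbouring clusters were higher over their full length. The region of rank 1, from 7461551 to 7464101, held 41 CpGs and comprised all CpGs of its cluster. Its summed difference was 14.6, or 0.355 per CpG, and the net sum was 98.5% of the sum over CpGs without sign. Marked CpGs, all of them higher, carried 21.7% of the difference. The next cluster, from 7458190 to 7459989, held 20 CpGs, was listed whole as well, and took rank 9 with a summed difference of 7.79 (0.389 per CpG). All of its CpGs were higher, and marked ones carried 13.1%. The clusters lie 1562 bp apart and together gave 61 CpGs over 5911 bp with a summed difference of 22.3. The pair was chosen after its values were seen. Within 20 kb on both sides of the rank 1 region, 16 regions were listed for curcumin, 10 higher and 6 lower, with a summed difference of 22.7 over 100 CpGs. The gain at this place was thus that of the pair, and the surroundings added little.

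A loss of methylation of similar length followed at GB49219 on linkage group 7. The rank 2 region, from 4379616 to 4382415, comprised all 29 CpGs of its cluster and had a summed difference of -11.5, or -0.398 per CpG. No CpG in it was higher in the co-fed bees, and marked CpGs carried 22.8%. GB49219 corresponds to gudu of Drosophila, a gene known there for its role in male fertility. Rank 3 was a gain on linkage group 9, from 5071051 to 5073221, where 35 of the 37 CpGs of a cluster added up to 11.2 (0.319 per CpG). All 35 CpGs were higher, and none of them was marked. The longest region of the comparison, rank 4 on linkage group 12 from 8599810 to 8602944, held 51 CpGs with a summed difference of -10.9 (-0.215 per CpG). It was the one region of the first 20 with marked CpGs in both directions, which added up to -1.92 and 0.372.

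Of the first 20 regions, 14 were lower in the co-fed bees and 6 were higher. They held 9 to 51 CpGs and lay on 11 linkage groups or unplaced sequences, and 5 of them were whole clusters. Differences per CpG ran from 0.207 to 0.638 without sign. Marked CpGs were found in 17 regions and carried 19.3% of the difference of the 20. They were present in 17.8% of all regions and in 56.4% of those of 10 or more CpGs. A larger number of CpGs raises the presence of a mark by itself. In 9 of the 20 regions every CpG moved one way. The steepest of the 20 was rank 19 on linkage group 11, from 9351414 to 9351795, where 9 CpGs within 381 bp were lower by -0.638 each on average and marked CpGs carried 69.9%. Rank 14 on the unplaced sequence GroupUn43, from 83343 to 84574, was next, with 11 CpGs at -0.601 per CpG and 41.6% marked. At the other end, ranks 5 and 20 on linkage group 4 and rank 3 held no marked CpG although they held 27, 21 and 35 CpGs. The rank 5 region, from 10090120 to 10091886, was lower at every CpG and had a summed difference of -9.85. A large sum was therefore reached both by a few steep, marked CpGs and by many CpGs of which none was marked.

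**Figure D1:**
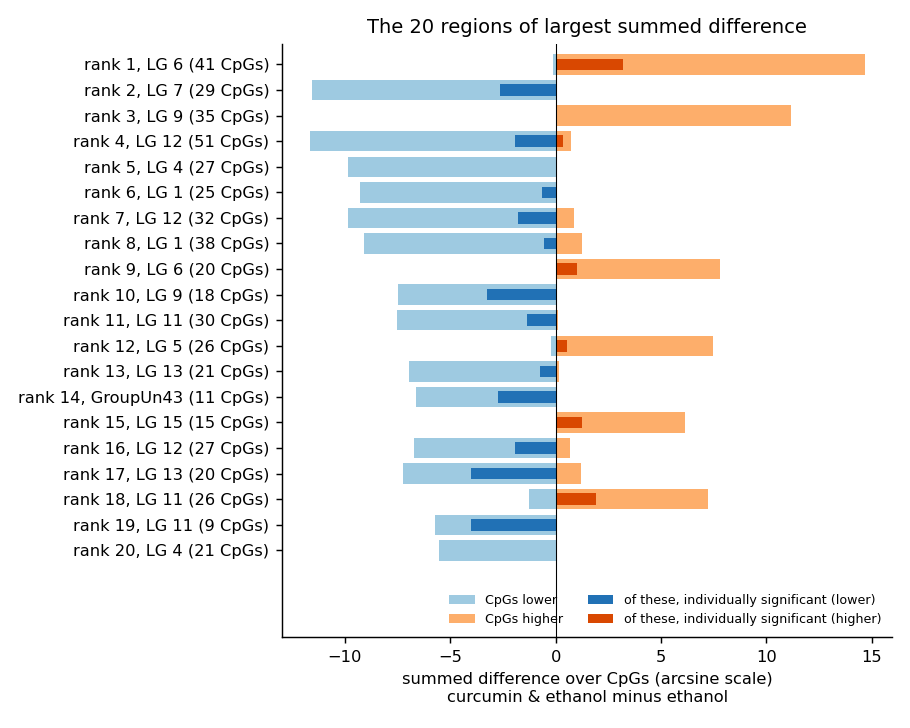
Summed difference (arcsine scale, curcumin and ethanol minus ethanol) of the 20 regions of largest summed difference, by rank, linkage group (LG) and number of CpGs. Wide bars add the CpGs that were lower (blue, to the left) or higher (orange, to the right), narrow bars the individually significant CpGs among them, and ranks 3, 5 and 20 have no narrow bar.

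The order beyond the first 20 was gradual. The summed difference was 5.50 without sign at rank 20 and 5.48 at rank 21, which was a gain over 19 CpGs on linkage group 8 from 1649188 to 1651135. The first region held 0.235% of the 6190 over all regions, the first 20 held 2.63%, the first 100 held 8.15% and the first 1000 held 37.3%. The comparison is thus made up of many small regions. Among the first 100, 56 were lower and 44 higher, and among the first 1000, 538 were lower and 462 higher.

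Where regions of at least 5 CpGs were ordered by the difference per CpG, the first and second were ranks 19 and 14. The next 3 were gains over few CpGs. On linkage group 2, from 186967 to 188796, 6 CpGs were higher by 0.596 on average. On linkage group 7, from 10952944 to 10953346, 5 CpGs were higher by 0.594 on average, with 91.0% carried by marked CpGs. On the unplaced sequence GroupUn6, from 182904 to 184356, 5 CpGs were higher by 0.534 on average and none was marked. In steep regions marked CpGs thus carried from none to nearly all of the difference.

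Among regions of at least 10 CpGs, 3 stood first by the share carried by marked CpGs. One was a gain over all 10 CpGs of a cluster on linkage group 4, from 2668390 to 2670412, with a summed difference of 4.26 and 73.8% marked. Another was a loss over 13 CpGs on linkage group 5, from 11757812 to 11759329, with -3.61 and 73.1%. The third was a gain over 11 CpGs on linkage group 1, from 12123102 to 12123736, with 4.49 and 70.3%, in which marked CpGs added up to 3.30 higher and -0.214 lower. Of all 401 regions of this length, 12 had over 50% of their difference in marked CpGs and 175 had no marked CpG. The median share was 10.9%.

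The same stretches also carry values for ethanol against control, which use the same 5 ethanol bees. A high or low level in those bees enters both comparisons with opposite sign, and the values are therefore set side by side without any measure of their relation. All of the first 20 curcumin regions shared at least 1 bp with a listed ethanol region, 12 of them over at least 50% of both, and 5 had identical bounds. Of all 9689 curcumin regions, 1829 had identical bounds. The other 2 counts were not taken over all regions, and long regions overlap more easily. At ranks 9 and 16 the overlap was 1 bp. At the identical bounds both sums cover the same stretch and number of CpGs. For GB49219, where 29 CpGs added up to -11.5 with curcumin against ethanol, ethanol against control gave 11.4. The 51 CpGs of rank 4 gave -10.9 and 10.8. Rank 10 on linkage group 9, from 10563322 to 10564451, had 18 CpGs with -7.47 for curcumin and 4.61 for ethanol. The first 2 thus had values of like size in both comparisons and the third a larger one with curcumin. Rank 14 on GroupUn43, with 11 CpGs, had -6.62 for curcumin and 1.95 for ethanol. Rank 15 on linkage group 15, from 9868992 to 9871412, had 15 CpGs with 6.15 for curcumin and -4.29 for ethanol.

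The linkage group 6 pair was listed for ethanol only in small pieces. The 41 CpGs of rank 1 overlapped an ethanol region of 7 CpGs with -0.918, and the 20 CpGs of rank 9 overlapped 1 CpG with -0.145. Within 20 kb of rank 1 the 12 regions listed for ethanol had 34 CpGs and a summed difference of 1.16, none beyond -0.918 or 1.13. At this place the large value was found in the curcumin comparison. Rank 16 on linkage group 12, from 11873034 to 11875181, had -6.04 over 27 CpGs for curcumin. The ethanol region set beside it, from 11872732 to 11873035, had 0.458 over 3 CpGs. It shared 1 bp with rank 16 and covers mostly the neighbouring stretch. At GB47217 the sizes were turned around, with -7.42 over 30 CpGs for curcumin and 25.0 over 35 CpGs for ethanol.

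**Figure D2:**
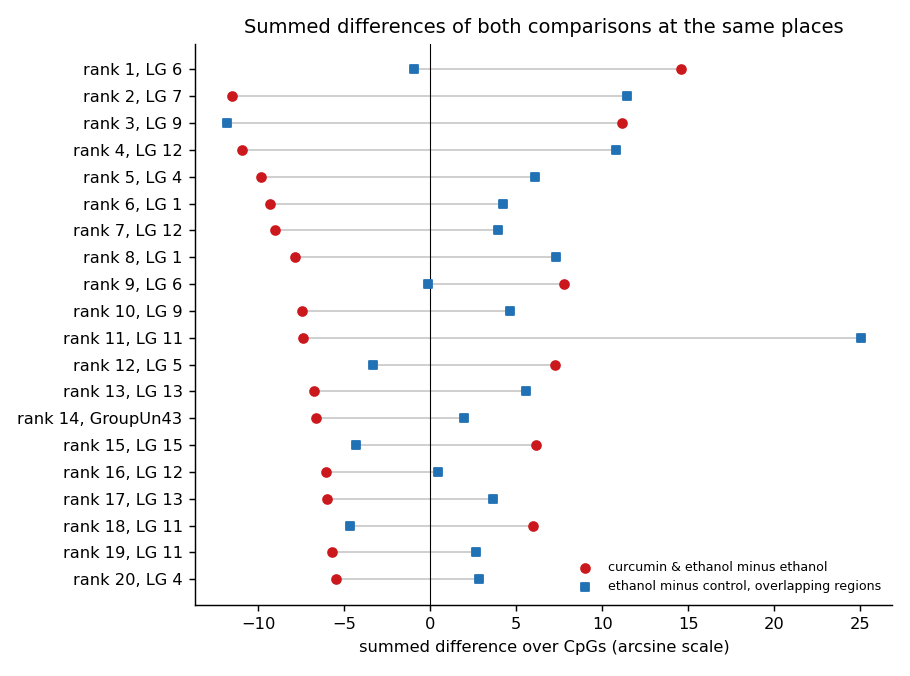
Summed difference (arcsine scale) of the 20 largest curcumin regions (red circles, curcumin and ethanol minus ethanol) and of the listed ethanol regions that overlap them (blue squares, ethanol minus control), joined by a line for each rank and linkage group (LG). Both comparisons share the 5 ethanol bees, and at rank 1 on linkage group 6 the values are 14.6 and -0.918, whereas at rank 2 (GB49219) they are -11.5 and 11.4. At ranks 9 and 16 the overlap is 1 bp.

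The 4 loci named by the study lay far apart in the order. GB47217 on linkage group 11, a calcitonin receptor whose relatives in Drosophila and mice take part in temperature preference, held rank 11 from 8574209 to 8575551, with 30 CpGs at -0.247 per CpG and 17.7% marked. A second stretch of 2 CpGs there was higher, with a summed difference of 0.448. GB43904 on linkage group 8 belongs to the intraflagellar transport complex B, which carries tubulin within cilia. It held 2 regions, rank 43 from 6515698 to 6516795 (11 CpGs, -4.57) and rank 452 from 6517198 to 6517937 (10 CpGs, -2.01), against 6.84 over 17 CpGs for ethanol. These loci were thus lower in the co-fed bees, as was GB49219, apart from the short second stretch. The direction at GB49219 was fixed in advance, since the sign of all differences was set by what the study describes there. GB43904 was told apart from GB52826 by the direction of its ethanol difference, which shares the ethanol bees. GB52826 on linkage group 8 encodes a transmembrane protein, and its 6 CpGs from 9094851 to 9095993 had 0.956 (0.159 per CpG). A stretch of 2 CpGs from 9097773 to 9098742 had 0.371. It shared 1 bp with the ethanol region of this locus, and its place in the gene was not checked. These regions took ranks 1896 and 5119 and held no marked CpG, beside -7.35 over 15 CpGs for ethanol. The loci had been chosen by the study on these bees and are therefore no independent evidence of a direction.

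Regions of many CpGs were few but carried a large part of the difference, and their direction was less evenly split than that of short ones. Regions of 1 CpG numbered 3468 (35.8% of regions) but held 11.3% of the 6190 over all regions, and the 401 regions of 10 to 51 CpGs (4.14% of regions) held 18.9%. The share lower was 50.9% for 1 CpG, 52.6% for 2, 50.4% for 3 to 4, 52.2% for 5 to 9 and 56.1% for 10 or more CpGs. The Wilson 95% interval of the last share was 51.2 to 60.9% and overlapped that of all regions. Of these long regions, 225 were lower with a summed difference of -669 and 176 were higher with 499. The long regions thus held -169 of the total of -377, and those of 5 to 9 CpGs a further -120.

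The size of the difference per CpG changed little with length. Its median without sign rose from 0.181 at 1 CpG to 0.199 at 10 or more. The share of regions with a marked CpG rose from 5.45% to 56.4%, which a larger number of CpGs per region raises by itself. The share of the difference carried by marked CpGs, which does not count regions, was 8.66% at 1 CpG, 12.2% at 2, 12.6% at 3 to 4, 15.6% at 5 to 9 and 15.4% at 10 or more. Regions in which every CpG moved one way fell from 84.0% at 2 CpGs to 19.7% at 10 or more.

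The number of CpGs in the surrounding cluster, which was 7 to 130 with a median of 20, bore little on direction. The share lower was 51.4% in clusters of 7 to 9 CpGs, 51.6% in those of 10 to 29 (Wilson 95% interval 50.3 to 52.9%) and 51.6% in those of 30 to 130. The other intervals held 50%. Median differences per CpG without sign were 0.178, 0.184 and 0.191. The share of the difference carried by marked CpGs was 11.3%, 13.7% and 14.3%. Their summed differences were -11.8, -181 and -184, so that each class was lower on balance.

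Gains and losses often lay in the same cluster. The regions fell into 4134 clusters, of which 2891 held several regions. Of these, 2220 (76.8%) held regions of both directions, 353 only lower and 318 only higher ones. A region ends where its smoothed difference changes sign or drops below the listing limit, so that mixed clusters arise in part by construction. Of the 84526 CpGs in these clusters, 36.3% were in a listed region.

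Linkage groups, the chromosomes of the honey bee genetic map, differed little in direction. The share of regions lower in the co-fed bees ran from 47.5% on linkage group 4 to 56.5% on linkage group 9, with a median of 51.3%. Wilson 95% intervals of 14 of the 16 groups held 50%. The exceptions were linkage group 9 (51.2 to 61.6%) and linkage group 3 (55.8%, 51.8 to 59.9%), and that of linkage group 3 was the one that did not hold the share of all regions. These intervals cover counting only, since all regions come from the same bees, and were not adjusted for the 16 groups. A difference between groups was not tested. Lower regions outnumbered higher ones on 13 of 16 groups. The 885 regions on unplaced sequences were lower in 51.6%.

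The share of the difference carried by marked CpGs also varied between linkage groups. It was highest on linkage group 13 (19.0%), the group with the fewest regions (153), followed by linkage group 2 (17.3%) and linkage group 7 (16.8%). The lowest share was 10.3% on linkage group 10. The first place of linkage group 13 rested on 1 region. Without rank 17, from 654689 to 656093, of which marked CpGs carried 47.3%, its share was 16.5%, behind linkage groups 2 and 7. This region was left out after its values were seen. Median differences per CpG without sign lay between 0.170 on linkage group 16 and 0.194 on linkage group 2.

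Summed over all their regions, 13 of 16 linkage groups were lower in the co-fed bees, down to -63.3 on linkage group 11, -52.5 on linkage group 3 and -45.3 on linkage group 5. The sum was above 0 on linkage groups 6 (16.0), 2 (13.9) and 4 (0.759). Single regions weighed on these sums. Without its largest region, linkage group 6 came to 1.42, linkage group 2 to 8.71 and linkage group 4 to 10.6. The sums of 8 groups moved by over 1.5 times in this way, and those of 0 groups changed sign. The others were linkage group 1 (-21.0 to -11.7), linkage group 7 (-31.9 to -20.3), linkage group 13 (-14.9 to -8.11), linkage group 14 (-10.7 to -5.58) and linkage group 16 (-8.08 to -13.3). The largest region of a group was higher in the co-fed bees on 8 groups and lower on 8, at ranks from 1 to 110 and with 0.180 to 0.474 per CpG without sign. On linkage group 16 it was a gain of 11 CpGs from 4343892 to 4344722 with a summed difference of 5.22 and 49.4% marked. On linkage group 14 it was a loss of all 12 CpGs of a cluster from 5260526 to 5260944 with -5.13.

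**Figure D3:**
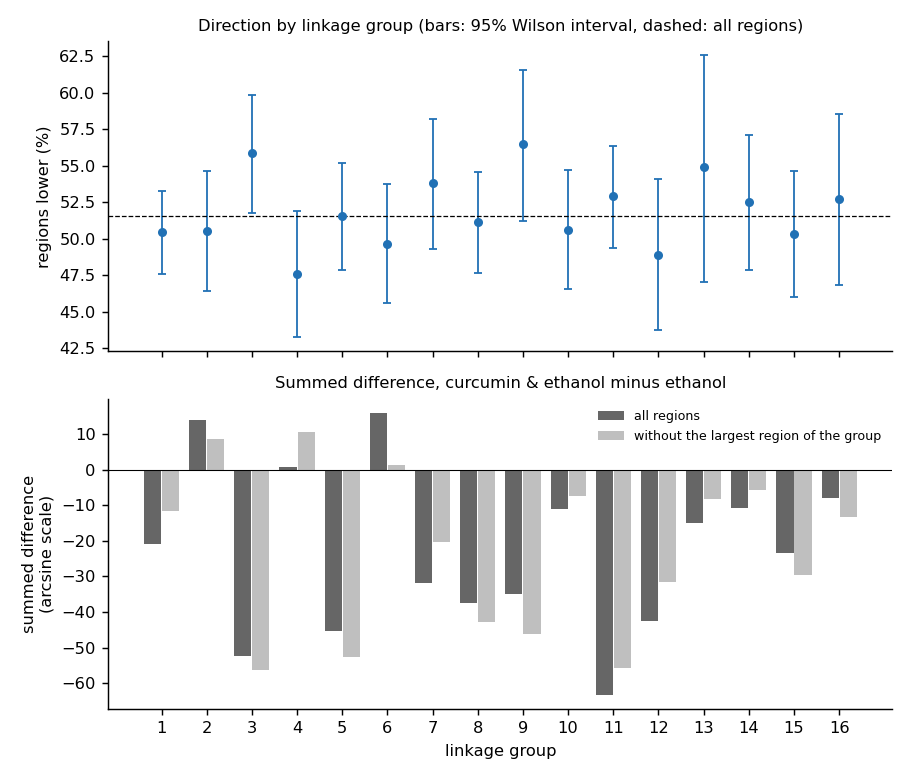
Upper panel, share of regions lower with curcumin and ethanol than with ethanol (percent, point with Wilson 95% interval, dashed line at the 51.6% of all regions) for each of the 16 linkage groups, and lower panel, summed difference (arcsine scale) of all regions (dark bars) and without the largest region of the group (light bars). The share lower lies between 47.5% (linkage group 4) and 56.5% (linkage group 9), and the sum of linkage group 6 goes from 16.0 to 1.42 without its largest region.

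Regions of 1 CpG show how the marking went with the size of a difference, since each is either marked or not. Of the 3468, 189 (5.45%) were marked, 105 of them lower and 84 higher in the co-fed bees. That share is close to the 0.05 that an unadjusted p under 0.05 marks where no CpG differs. The marks of single CpGs and their split by direction are therefore weak evidence of a difference. Marked CpGs differed by 0.0825 to 0.865 without sign with a median of 0.270, and the 3279 others by up to 0.698 with a median of 0.176. The sizes overlapped widely, and 672 CpGs without a mark differed by more than the median marked one. The marked share was 0.195% below a difference of 0.1, 2.69% between 0.1 and 0.2, 7.97% between 0.2 and 0.3, 8.15% between 0.3 and 0.4 and 13.3% between 0.4 and 0.5. Above 0.5 it was 34.9% (30 of 86 CpGs, Wilson 95% interval 25.7 to 45.4%). Most single CpGs of a large difference were thus not marked.

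The steepest single CpG was a gain of 0.865 at 40717 on the unplaced sequence GroupUn115, and it was marked. The next gains were 0.709 at 11672063 on linkage group 5, marked, and 0.687 at 14270519 on linkage group 1, without a mark. Losses reached -0.800 at 12438419 on linkage group 7, -0.769 at 11758651 on linkage group 11 and -0.744 at 10020816 on linkage group 5, all of them marked. Both directions thus reached a like size. In regions of at least 2 CpGs, the share carried by marked CpGs was 13.2% where the difference per CpG was below 0.1, 10.7% from 0.1 to 0.2, 14.1% from 0.2 to 0.3, 18.7% from 0.3 to 0.4, 30.5% from 0.4 to 0.5 and 41.7% above.

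**Figure D4:**
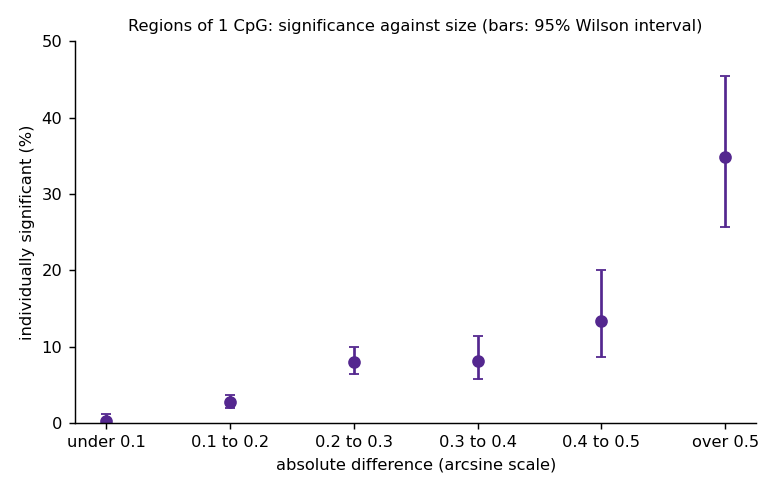
Share of the 3468 regions of 1 CpG that had been marked as individually significant (percent, point with Wilson 95% interval), by size of the difference without sign (arcsine scale). The share goes from 0.195% below 0.1 to 34.9% above 0.5.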

How the data were processed

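Whole genome bisulfite sequencing was done on abdominal DNA of single honey bees. The authors trimmed reads with Trimmomatic and aligned them to Amel 4.5, and the submitters' processing notes name CASAVA 1.8.2, FastQC 0.11.5, Bismark 0.16.3, Bowtie 1.0.0 and R 3.5.3. A CpG was kept by the authors where its mean coverage was 6 or higher and its level reached 10% in no fewer than 3 samples. Kept levels were arcsine transformed and tested singly, and joined into regions with bumphunter in clusters of at least 7 CpGs. The deposited difference scores (smoothed mean, area, and sums over all or over individually significant CpGs) are the authors' own comparison values, and the depth behind each is unknown. The deposited region p-value was not used to rank or test regions. All 1829 regions of identical bounds held the same p-value in both tables. It did serve to place the loci that the study names. These were taken as the ethanol regions of lowest p-value and told apart by linkage group and direction. It also served to judge the limit of the marks.

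Groups came from the sample labels. The sign of the deposited sum was turned so that positive is higher with curcumin and ethanol. The tables do not name the order of the groups, and the orientation follows the direction that the study describes at GB49219. It is opposite to the sign of the smoothed mean in all but 255 regions before turning. Sums were divided by the number of CpGs, and the marked share is the sum over individually significant CpGs divided by the sum over all CpGs, both without sign. Marks went with an unadjusted p under 0.05, judged from ethanol regions of 1 CpG. In curcumin regions of 1 CpG the deposited p-value did not separate marked from unmarked CpGs. The limit of the curcumin marks is therefore carried over from ethanol and could not be checked. An ethanol region was set beside a curcumin region when the pair had 1 bp or more in common. Whether a start counts from 0 or 1 is not given in the sources used here.

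Members, measures and lists were chosen with earlier results of these data known. Regions named were the 20 of largest summed difference, the 5 largest gains, the largest of each linkage group, the 5 steepest with at least 5 CpGs, the 3 steepest single CpGs in each direction, the 3 with most CpGs, the 3 of at least 10 CpGs with the highest marked share, the 3 clusters with most regions, and those at the 4 loci. Alternatives changed the measure, the smallest number of CpGs, the size of the difference, the order and the overlap. Scripts were tested on simulated data. Python 3.11.15, numpy 2.4.6, pandas 2.3.3 and matplotlib 3.10.9 were used. Methylation per bee, gene assignment and sequence were not analysed here.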

Additional observations from a re-analysis of the deposited data

How the results depend on the processing

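The share of regions lower with curcumin and ethanol was 51.6%. It was 56.1% among regions of at least 10 CpGs and 52.6% among those that differed by at least 0.2 per CpG, and between 50.9% and 51.9% under the other 5 alternatives (smoothed mean, at least 2 or 3 CpGs, a difference of at least 0.1, numbered linkage groups). The summed difference of -377 became -391 without rank 1 and -319 without the first 20 regions. Of the first 20 regions, 16 were also among the first 20 by area, 18 by the sum of absolute differences, and 2 by the difference per CpG with at least 5 CpGs. All 20 overlapped an ethanol region by at least 1 bp, 12 by at least 50% of both and 5 with identical bounds, the last beside 1829 of all 9689 regions. Long regions overlap more easily, and the other overlap counts were not taken over all regions. These values for long regions, steep regions, the order per CpG and both stricter overlaps were the 5 that moved. The other 22 alternative values stayed within 1.5 times of the reported ones, as did the moved shares for long and steep regions. No direction was reversed. This limit is wide, and the share carried by marked CpGs stayed within it when it went from 13.7% to 9.24% as a mean over regions. Linkage group 13 had the highest share carried by marked CpGs (19.0%), also with at least 3 CpGs (22.0%) or without the largest region of each group (19.7%), but 16.5% and not the highest without its rank 17 region, an alternative chosen after seeing the data. No paired analysis was possible because the tables hold 0 columns of single bees, and leaving out each bee was not run for the same reason. Diet and cage cannot be told apart.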

Other observations

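Regions that comprised every CpG of their cluster numbered 36, and were split evenly, with 18 lower (summed difference -71.5) and 18 higher (72.3) in the co-fed bees. They held 7 to 41 CpGs and differed by a median of 0.261 per CpG without sign, between 0.148 and 0.601. In 20 of them every CpG moved one way, and 15 held a marked CpG. Among all listed regions, 36.9% of those of 5 to 9 CpGs and 56.4% of those of 10 or more held one.

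Other clusters were broken into many regions of both directions. The cluster with most regions lay on linkage group 7 between 2107521 and 2120305, where 11 regions, 6 lower and 5 higher, came to a sum of -0.424 over 45 listed CpGs. On linkage group 15 between 704346 and 720814, 10 regions, 4 lower and 6 higher, came to 0.438. On linkage group 4 between 10449767 and 10463537, 10 regions, 7 lower and 3 higher, came to -2.47. Clusters of this kind contrast with the linkage group 6 pair and with rank 2 and its neighbour on linkage group 7, where single regions covered whole clusters.

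Marked CpGs were not split alike on every linkage group. Their differences summed below 0 on 9 of 16 groups, and the part of their difference that was lower in the co-fed bees ran from 37.0% on linkage group 16 and 37.5% on linkage group 4 to 65.4% on linkage group 12. These shares rest on few CpGs and were not tested.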
